A study of Mus musculus with 6 samples.

Results

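The genes of bile acid synthesis, transport and sensing were followed in mouse liver as 33 genes picked by symbol from a read count table of 30029 genes. All 33 had a row. They were 9 enzymes that act on the sterol ring or start the pathway, 6 enzymes of side-chain shortening and conjugation, 6 uptake carriers, 7 exporters and 5 genes of sensing and signalling. The 9 are called ring enzymes below for short, although Cyp27a1 and Cyp46a1 among them hydroxylate the side chain. Polyadenylated RNA had been sequenced in 3 liver libraries labelled Atp7b knockout (Atp7b-/-) and 3 labelled wild type. Atp7b encodes the copper pump of hepatocytes, and its loss in humans is the cause of Wilson disease. Both groups had eaten a high-fat diet for 24 weeks, so the comparison is one of genotype on that diet, with no normal-diet group analysed here. The sources used here do not give the allele, strain, sex or age of the mice, or whether each library came from its own animal. P-values therefore measure only the spread between these libraries, which may be technical.

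Hepatocytes turn cholesterol into bile acids by a classical route, which begins with 7-alpha-hydroxylation of cholesterol, and by an alternative route, which begins with side-chain oxidation. The acids are shortened in peroxisomes, joined to taurine (glycine in some species), pumped into bile, recovered in the ileum and taken up again from portal blood. The nuclear receptor FXR senses them in hepatocytes and ileum and lowers their synthesis, through the repressor SHP in liver and through an ileal hormone that acts on FGFR4 and its partner beta-klotho at the hepatocyte surface.

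Total counts were 68117601, 70965999 and 70720525 in the libraries labelled knockout and 57886524, 60166310 and 67280139 in those labelled wild type. Atp7b itself had 1987, 1908 and 2087 counts in the libraries labelled knockout and 909, 1192 and 2051 in those labelled wild type. By edgeR's quasi-likelihood test its log2 fold change was 0.05 ± 0.23 (SE, adjusted p = 0.939), so the gene total did not check the labels, and directions below hold for the labels as given. Levels are in CPM, counts scaled to a fixed library total, after trimmed-mean (TMM) scaling, and a log2 fold change is labelled knockout over labelled wild type. Summed levels of 12 hepatocyte markers were 63620, 81270 and 63300 CPM in the labelled-knockout livers and 64290, 68330 and 73110 CPM in the labelled-wild-type livers. Alb was the largest part of each sum. It had 38050, 45400 and 39410 CPM in the labelled-knockout livers and 28650, 31150 and 34980 CPM in the labelled-wild-type livers. Of the 12 markers, 2 had positive and 10 negative log2 fold changes with TMM scaling, where 52.0% of all tested genes were negative. Their median was -0.32 (-0.02 with total-count scaling). By edgeR 0 of 12 were called, against 1.44% of all tested genes. At an unadjusted p under 0.05 there was 1 lower, against 7.70% of all tested genes. DESeq2 called 1, against 10.6%. Most of the 33 genes are hepatocyte genes, and in whole liver fewer cells of a type and less RNA per cell cannot be told apart.

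One bile acid gene passed the test. Cyp2c70, the mouse enzyme that makes muricholic acids, fell 2.80-fold in the livers labelled knockout. The other 31 tested members did not pass, and Gpbar1 had too few counts to be tested. Calls were made for 1 of 32 members (0 higher and 1 lower), against 1.44% of the 17606 genes tested (0.932% higher and 0.506% lower). At an unadjusted p under 0.05 there were 10 of 32 members, 5 higher and 5 lower (31.2%), against 19.7% of all tested genes (12% higher and 7.70% lower). In 9 of 32 the groups did not overlap, with the labelled-knockout libraries above in 3 and below in 6 (28.1%), against 25.7% of all tested genes (13.7% above and 12% below). The share without overlap was thus near that of the whole table. DESeq2 called 8 of 32 members, against 10.6% of all genes. They were Cyp39a1, Slco1a4 and Abcc4 on the higher side and Cyp7b1, Hsd3b7, Cyp2c70, Abcb11 and Fgfr4 on the lower. The call of Cyp2c70 alone was also made with DESeq2 size factors (1.29% of all genes called), with a filter of 10 counts in 3 libraries (1.31%) and with limma voom (0.392%). Total-count scaling called 3 members (5.73% of all genes) and no filter called 2 (1.70%). With a library left out, 4 members were called without labelled-wild-type replicate 1 (2.07% of all genes) and 2 without labelled-knockout replicate 2 (4.96%). No member was called without labelled-knockout replicate 1 (0.0607% of all genes) or 3 (0.184%), or without labelled-wild-type replicate 2 (0.00%) or 3 (0.0217%). In those 4 fits 7, 8, 6 and 8 members had an unadjusted edgeR p under 0.05, against 15.1%, 15.0%, 13.1% and 15.5% of all genes tested there. None was called with the replicate number as a block (0.0227%), where 12 had an unadjusted p under 0.05, against 16.6% of all genes.

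The classes differed in the sign of their medians with TMM scaling. The median log2 fold change was -0.54 for the 9 ring enzymes, -0.19 for the 6 side-chain and conjugation enzymes, -0.30 for the 6 uptake carriers, 0.43 for the 7 exporters and -0.30 for the 4 tested signalling genes, beside -0.02 for all tested genes. The 12 hepatocyte markers had a median of -0.32 (-0.02 with total-count scaling). Under either scaling this was below every class median but that of the ring enzymes. With total-count scaling the median of all genes stood at 0.31 and those of the classes at -0.23, 0.12, 0.00, 0.76 and 0.01, so 3 classes changed sign, and 9 members did as well. Less the median of all genes, the 5 class medians were -0.52, -0.18, -0.28, 0.45 and -0.29 under TMM, and total-count scaling gave -0.54, -0.19, -0.31, 0.44 and -0.30. The ring-enzyme median was -1.10 without labelled-knockout replicate 2, and the exporter median was 0.67 when genes needed 10 counts in 3 libraries, which removed Slc51a. With TMM scaling 8 of the 9 ring enzymes had negative log2 fold changes and 5 of the 7 exporters positive ones, where 52.0% of all tested genes were negative. With total counts these were 7 of 9 and 6 of 7, where 19.6% of all tested genes were negative. Under both scalings the positive exporters included Slc51a and Slc51b, which were close to the limit of counting. Over all 32 tested members, 9 were positive and 23 negative with TMM, and 18 positive and 14 negative with total counts.

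**Figure D1:**
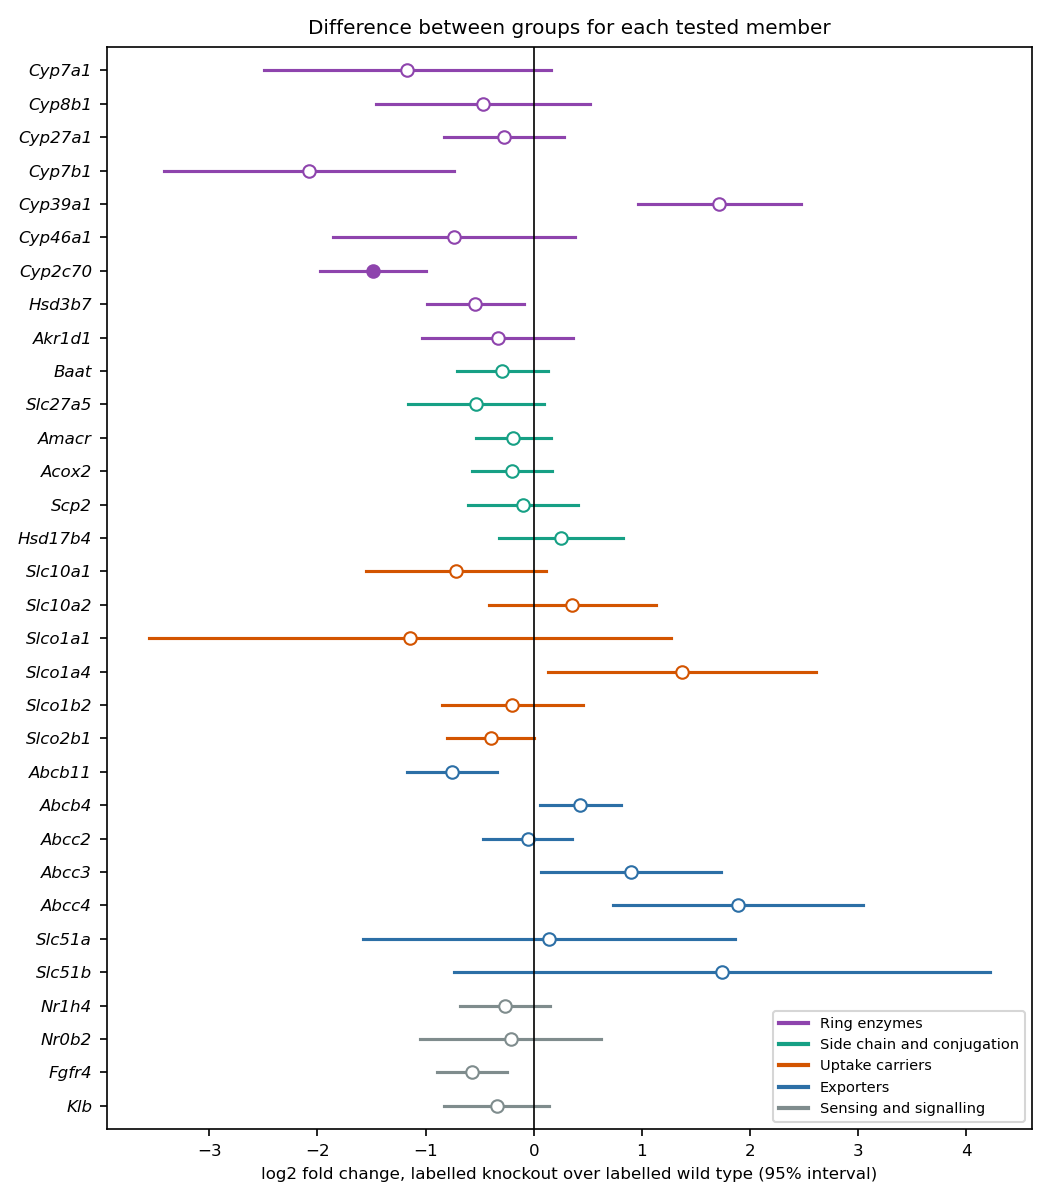
Log2 fold change of the 32 tested members, labelled knockout over labelled wild type, with 95% intervals from edgeR's quasi-likelihood fit, coloured by class. The filled point is Cyp2c70, at -1.49, the only member past the test; the intervals of Cyp7b1, Hsd3b7, Abcb11 and Fgfr4 lie below 0 and those of Cyp39a1, Slco1a4, Abcb4, Abcc3 and Abcc4 above it, without passing after adjustment over all genes.

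Cyp2c70 (ENSMUSG00000060613, GRCm39 chromosome 19, 40141797 to 40175777, minus strand) hydroxylates chenodeoxycholic and ursodeoxycholic acid at carbon 6, the step that gives mice their hydrophilic bile acid pool. It had 203, 257 and 274 CPM in the labelled-knockout livers and 534, 755 and 771 CPM in the labelled-wild-type livers. Every labelled-knockout library was thus below every labelled-wild-type library. It averaged 245 ± 37.5 CPM in the labelled-knockout livers and 686 ± 132 CPM in the labelled-wild-type livers (SD, n = 3 each). In edgeR's fit this was a log2 fold change of -1.49 ± 0.21 (SE) with an adjusted p of 0.0416. The log2 fold change was -1.64 to -1.37 with any 1 library left out and -1.15 with total-count scaling. Its adjusted p was 0.0256 without labelled-knockout replicate 2 and 0.0251 without labelled-wild-type replicate 1. It was above 0.05 without any one of the other 4 libraries, at 0.130 and 0.0555 without labelled-knockout replicates 1 and 3 and 0.180 and 0.134 without labelled-wild-type replicates 2 and 3. Cyp2c70 belongs to a large family of similar genes among which counting could divide reads.

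The upstream sequence of Cyp2c70 is shown as that of the member past the test (chr19:40187287-40187536, minus strand, 250 bases before the RefSeq start, GRCm38.p6, from RefSeq). Capitals mark its one match to the nuclear receptor site AGGTCA, from base -74 to -69 before the start.
Cyp2c70: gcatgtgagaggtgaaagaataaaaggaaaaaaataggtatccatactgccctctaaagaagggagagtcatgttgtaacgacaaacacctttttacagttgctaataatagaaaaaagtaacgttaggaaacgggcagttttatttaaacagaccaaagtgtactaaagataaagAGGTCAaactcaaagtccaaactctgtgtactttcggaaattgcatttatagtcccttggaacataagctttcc
Of the 33 members, 25 had an upstream sequence, in 30 windows. Each window was searched on both strands for AGGTCA, for the FXR inverted repeat AGGTCANTGACCT with up to 3 mismatches, for TCAAGG, the core of sites bound by the receptor LRH-1, and for TGACNNNGC, the core of the antioxidant response element. An inverted repeat can hold an AGGTCA on either strand, so these searches overlap. Windows with a match numbered 11, 8, 3 and 7 of 30 in that order, and the shares of 32526 distinct upstream windows of the same length with a match were 14.0%, 9.63%, 12.4% and 10.2%. Some members had several windows, which are not independent. Those of Acox2 overlap and hold the same TGACNNNGC match. By gene, members with a match numbered 11, 7, 3 and 5 of 25. A match is only a run of letters in the window.

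Both oxysterol 7-alpha-hydroxylases had larger log2 fold changes than Cyp2c70, in opposite directions, without passing. Cyp7b1, the oxysterol 7-alpha-hydroxylase and a gene with male-biased expression in mouse liver, had 99.1, 130 and 26.1 CPM in the labelled-knockout livers and 264, 436 and 379 CPM in the labelled-wild-type livers. The groups did not overlap, and labelled-knockout replicate 3 was the lowest of all. Its log2 fold change was -2.08 ± 0.56 (SE), and its 95% interval ran between -3.42 and -0.74 (edgeR adjusted p = 0.109). Cyp39a1, which 7-alpha-hydroxylates 24-hydroxycholesterol and is female-biased in mouse liver, had 16.3, 24.4 and 23.8 CPM in the labelled-knockout livers and 8.71, 7.36 and 3.60 CPM in the labelled-wild-type livers. Here each labelled-knockout library was the higher. The log2 fold change was 1.71 ± 0.32 (edgeR adjusted p = 0.0510), and it passed without labelled-wild-type replicate 1 (adjusted p = 0.0460) and with total counts (0.0318). Cyp46a1, the cholesterol 24-hydroxylase best known from brain neurons, was near the bottom of the enzyme range, at 3.17, 6.96 and 2.41 CPM in the labelled-knockout livers and 10.9, 4.11 and 5.92 CPM in the labelled-wild-type livers, with overlapping groups (log2 fold change -0.74, edgeR adjusted p = 0.459). Cyp27a1, the mitochondrial sterol 27-hydroxylase that opens the alternative route and also oxidises side chains of the classical route, averaged 406 ± 136 and 491 ± 17.3 CPM in the labelled-knockout and labelled-wild-type livers (SD, n = 3 each). Its groups overlapped, and labelled-knockout replicate 2, at 557 CPM, was above all of the labelled-wild-type libraries (log2 fold change -0.27, edgeR adjusted p = 0.5996).

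Cyp7a1 and the enzymes that act after it on the ring, Cyp2c70 aside, did not pass. Cyp7a1, its rate-limiting cholesterol 7-alpha-hydroxylase, had 77.9, 227 and 196 CPM in the labelled-knockout livers and 162, 371 and 594 CPM in the labelled-wild-type livers. Both groups were spread wide, and labelled-wild-type replicate 1 lay among the labelled-knockout libraries. The log2 fold change of -1.17 had a 95% interval of -2.49 to 0.16 (edgeR adjusted p = 0.312), which takes in 0. Cyp7a1 is also known to follow the time of day and feeding, and the hour of collection is not given in the sources used here. Cyp8b1, the 12-alpha-hydroxylase that directs the route to cholic acid, had 130, 324 and 108 CPM in the labelled-knockout livers and 198, 267 and 312 CPM in the labelled-wild-type livers. Labelled-knockout replicate 2 was the highest of the 6 libraries and the rest of its group were the lowest. Without that library its log2 fold change was -1.10 (edgeR adjusted p = 0.0428), against -0.47 with all libraries (adjusted p = 0.611). Hsd3b7, the dehydrogenase that acts on 7-alpha-hydroxylated sterols of both routes, had 361, 429 and 282 CPM in the labelled-knockout livers and 552, 526 and 482 CPM in the labelled-wild-type livers. The groups did not overlap, and the log2 fold change was -0.54 ± 0.20 (edgeR adjusted p = 0.178). Akr1d1, the steroid 5-beta-reductase, averaged 87.4 ± 32.9 and 110 ± 32.1 CPM in the labelled-knockout and labelled-wild-type livers (SD, n = 3 each), with overlapping groups and a log2 fold change of -0.33 (edgeR adjusted p = 0.611).

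**Figure D2:**
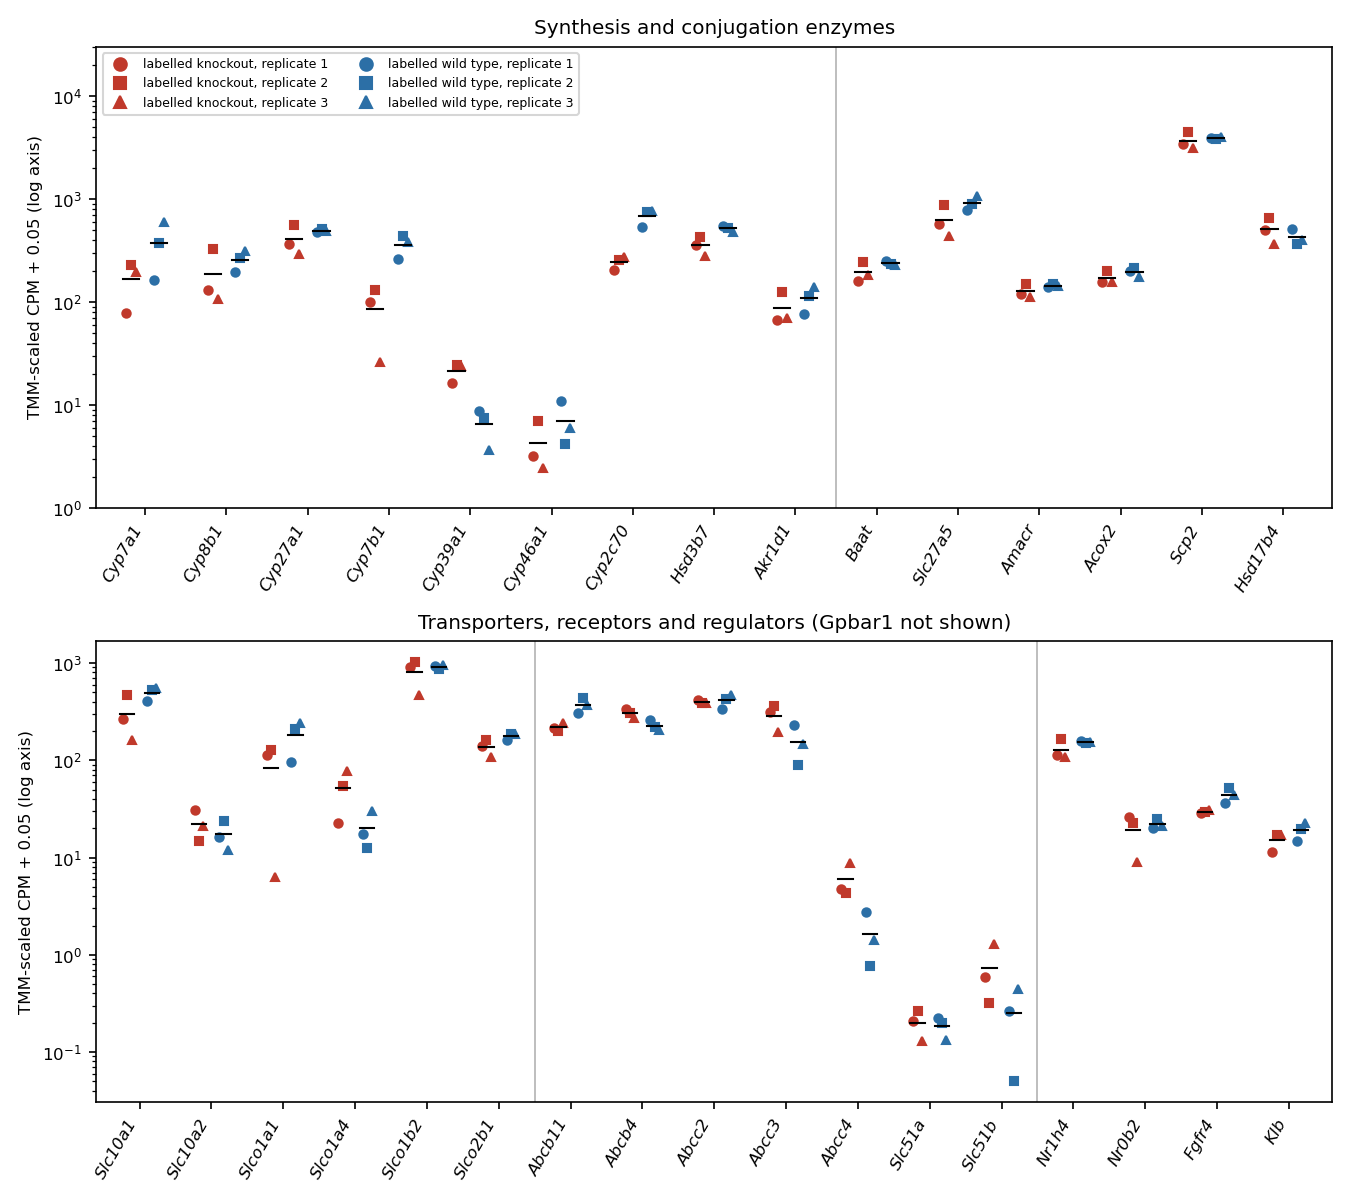
TMM-scaled CPM plus 0.05, on a log axis, of the 32 tested members in each library, labelled knockout (red) left of labelled wild type (blue), with the group mean as a black line and symbols for replicates 1 to 3. Cyp2c70 is between 203 and 274 CPM in the 3 labelled-knockout libraries and at 534 CPM or more in the others, while Slco1a1 in labelled-knockout replicate 3 stands alone at 6.28 CPM.

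No peroxisomal or conjugating enzyme passed, and none did at an unadjusted p under 0.05. All 6 had overlapping groups, with log2 fold changes from -0.53 to 0.25. The lowest was that of Slc27a5, the bile acyl-CoA synthetase, which had 578, 875 and 441 CPM in the labelled-knockout livers and 785, 892 and 1066 CPM in the labelled-wild-type livers (log2 fold change -0.53, 95% interval -1.16 to 0.09, edgeR adjusted p = 0.334). Baat, which joins the activated acid to taurine, had 160, 244 and 181 CPM in the labelled-knockout livers and 250, 234 and 230 CPM in the labelled-wild-type livers, and labelled-knockout replicate 2 lay within the labelled-wild-type range. Amacr, the racemase that prepares the side chain, and Acox2, the oxidase that starts its shortening, had log2 fold changes of -0.19 and -0.20. Their 95% intervals were -0.53 to 0.16 for Amacr and -0.58 to 0.17 for Acox2. Hsd17b4, the D-bifunctional enzyme of the next steps, was at 0.25 (95% interval -0.32 to 0.82). Scp2, whose longer product is the final thiolase, was at -0.10 (-0.61 to 0.41). Scp2 was also the most abundant member per transcript length, at 1396 and 1494 CPM per kilobase in the labelled-knockout and labelled-wild-type livers. Next on that scale, in the labelled-knockout livers, came Slc27a5 at 276, Slco1b2 at 242 and Cyp27a1 at 215 CPM per kilobase. In the labelled-wild-type livers the order was Cyp2c70 and Slc27a5, level at 400 CPM per kilobase, then Slc10a1 at 282 and Slco1b2 at 277.

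No uptake carrier passed. Slc10a1 (NTCP), the main sodium-dependent carrier of conjugated bile acids from blood, had 265, 472 and 161 CPM in the labelled-knockout livers and 406, 526 and 548 CPM in the labelled-wild-type livers. Labelled-knockout replicate 2 lay within the labelled-wild-type range and the other libraries of its group below it (log2 fold change -0.72, 95% interval -1.55 to 0.11, edgeR adjusted p = 0.324). Slco1b2, which carries unconjugated bile acids, had 916, 1017 and 469 CPM in the labelled-knockout livers and 933, 864 and 955 CPM in the labelled-wild-type livers. Labelled-knockout replicate 2 was the highest library and replicate 3 the lowest, and without replicate 3 the log2 fold change was 0.08, against -0.20 with all libraries. Slco2b1, an organic anion carrier, had 139, 160 and 108 CPM in the labelled-knockout livers and 163, 186 and 185 CPM in the labelled-wild-type livers, the one uptake gene whose groups did not overlap (log2 fold change -0.40, edgeR adjusted p = 0.257).

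The other organic anion carriers, a pair from the same gene cluster, included the member with the widest spread. Slco1a1, an organic anion carrier that is male-biased in mouse liver, had 114, 127 and 6.28 CPM in the labelled-knockout livers and 95.4, 211 and 240 CPM in the labelled-wild-type livers. Labelled-knockout replicate 3 was far below the other 5 libraries, and the log2 fold change was -1.14 with all libraries and -0.59 without that one (edgeR adjusted p = 0.599 with all libraries). Slco1a4, which lies near it on chromosome 6 and is female-biased in mouse liver, had 22.3, 54.9 and 76.9 CPM in the labelled-knockout livers and 17.5, 12.4 and 29.7 CPM in the labelled-wild-type livers. Labelled-knockout replicate 1 lay among the labelled-wild-type libraries (log2 fold change 1.37 ± 0.51, edgeR adjusted p = 0.214). The sequences of these paralogs are alike, and counting could divide their reads. Slc10a2 (ASBT), the ileal carrier that bile duct cells also make, had 31.0, 14.6 and 20.8 CPM in the labelled-knockout livers and 16.2, 23.9 and 11.9 CPM in the labelled-wild-type livers, with overlap (log2 fold change 0.36, edgeR adjusted p = 0.622). The ileal marker Fabp6 had 0 counts in all 6 libraries, which allows up to 0.0518 CPM, without TMM scaling, in the shallowest.

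Among the exporters, the bile salt pump and the basolateral carriers stood on opposite sides of 0, without passing. Abcb11 (BSEP), the canalicular bile salt pump, had 213, 201 and 240 CPM in the labelled-knockout livers and 305, 433 and 366 CPM in the labelled-wild-type livers. The groups did not overlap, and the log2 fold change was -0.76 ± 0.18 (SE, edgeR adjusted p = 0.0694, DESeq2 adjusted p = 0.000898). With total-count scaling it was -0.41 (edgeR adjusted p = 0.211). Abcb4 (MDR2), the canalicular phospholipid floppase that shields the duct from bile salts, had 336, 310 and 272 CPM in the labelled-knockout livers and 257, 220 and 203 CPM in the labelled-wild-type livers. Its groups did not overlap either, with the labelled-knockout libraries above (log2 fold change 0.43 ± 0.16, edgeR adjusted p = 0.198, and 0.0343 with total-count scaling). Abcc2 (MRP2), the canalicular carrier of conjugated anions, was nearly level at 412, 386 and 390 CPM in the labelled-knockout livers and 333, 429 and 474 CPM in the labelled-wild-type livers. Its log2 fold change of -0.06 had a 95% interval of -0.47 to 0.36 and was 0.27 with total-count scaling.

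Abcc3 and Abcc4 (MRP3 and MRP4) sit on the blood side of the hepatocyte, where they can return bile acids to the circulation. Abcc3 had 312, 357 and 195 CPM in the labelled-knockout livers and 228, 88.7 and 147 CPM in the labelled-wild-type livers. Labelled-knockout replicate 3 lay within the labelled-wild-type range (log2 fold change 0.90 ± 0.36, edgeR adjusted p = 0.223). Abcc4 was far scarcer, at 4.74, 4.31 and 8.64 CPM in the labelled-knockout livers and 2.72, 0.713 and 1.36 CPM in the labelled-wild-type livers, and its groups did not overlap. The log2 fold change was 1.89 ± 0.50 (edgeR adjusted p = 0.0910, and 0.0478 without labelled-wild-type replicate 1). Per transcript length, Abcc4 was at 1.03 and 0.279 CPM per kilobase in the labelled-knockout and labelled-wild-type livers, against 57.6 and 30.9 for Abcc3.

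The chains of the organic solute transporter were close to the limit of counting. Slc51a had 12, 15 and 7 counts in the labelled-knockout libraries and 9, 8 and 5 in the labelled-wild-type ones (log2 fold change 0.14, edgeR adjusted p = 0.953). Slc51b had 41, 19 and 111 counts in the labelled-knockout libraries and 11, 0 and 24 in the labelled-wild-type ones. The count of 0 in labelled-wild-type replicate 2 allows up to 0.0499 CPM without TMM scaling. Replicate 3 was the highest library of each group for Slc51b (log2 fold change 1.74, 95% interval -0.73 to 4.22, edgeR adjusted p = 0.428). Bile duct cells make both chains, and summed levels of 12 bile duct markers were 274, 102 and 682 CPM in the labelled-knockout livers and 126, 121 and 101 CPM in the labelled-wild-type livers. Labelled-knockout replicate 3 was thus highest in both. Spp1, named after its values were seen, was the largest part of each marker sum. It had 232, 74.5 and 580.5 CPM in the labelled-knockout livers and 103, 90.4 and 74.8 CPM in the labelled-wild-type livers. The part of bile duct RNA in the Slc51b values was not tested.

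Abcb11 and Nr0b2, the gene of SHP, are textbook parts of FXR feedback, and their upstream sequences are shown for the motif searches described with Cyp2c70 (250 bases before the RefSeq start, GRCm38.p6; Abcb11 at chr2:69342617-69342866, minus strand, and Nr0b2 at chr4:133553126-133553375, plus strand). In Abcb11, capitals mark 2 matches to the FXR inverted repeat, from base -94 to -82 with 2 mismatches and from -63 to -51 with 1 mismatch. The second holds an AGGTCA read on the other strand. In Nr0b2, capitals mark 2 matches to TCAAGG, which start at bases -68 and -35.
Abcb11: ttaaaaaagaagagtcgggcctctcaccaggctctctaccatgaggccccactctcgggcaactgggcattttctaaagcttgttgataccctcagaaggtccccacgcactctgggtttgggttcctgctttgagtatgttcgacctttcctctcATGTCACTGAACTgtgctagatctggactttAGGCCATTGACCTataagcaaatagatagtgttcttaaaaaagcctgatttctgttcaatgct
Nr0b2: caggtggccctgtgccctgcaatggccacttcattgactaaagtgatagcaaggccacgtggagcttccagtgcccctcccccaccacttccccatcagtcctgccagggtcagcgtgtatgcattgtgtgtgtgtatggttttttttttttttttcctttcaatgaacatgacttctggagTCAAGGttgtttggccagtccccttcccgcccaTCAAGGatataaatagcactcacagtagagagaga
Of this pair, Abcb11 was lower in every labelled-knockout library, whereas Nr0b2 overlapped between the groups.

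Among the sensing genes none passed, and all 4 tested log2 fold changes were negative with TMM scaling (with total counts Nr1h4 was at 0.04, Nr0b2 at 0.08, Klb at -0.01 and Fgfr4 at -0.24). Nr1h4, which encodes FXR, had 113, 164 and 109 CPM in the labelled-knockout livers and 159, 151 and 155 CPM in the labelled-wild-type livers. The labelled-wild-type libraries were tightly grouped, and labelled-knockout replicate 2 was above them (log2 fold change -0.27, 95% interval -0.68 to 0.15, edgeR adjusted p = 0.471). Nr0b2, the repressor induced by FXR, had 25.8, 22.5 and 8.99 CPM in the labelled-knockout livers and 20.1, 25.1 and 21.0 CPM in the labelled-wild-type livers. Labelled-knockout replicate 3 alone was low, and the log2 fold change was -0.21 with all libraries and 0.13 without it. Fgfr4, the receptor of the ileal hormone FGF15, had 28.6, 29.6 and 30.7 CPM in the labelled-knockout livers and 36.6, 51.2 and 44.3 CPM in the labelled-wild-type livers. These groups did not overlap, and the labelled-knockout libraries were closely grouped (log2 fold change -0.57 ± 0.14, edgeR adjusted p = 0.0750, and 0.0450 without labelled-wild-type replicate 1). Klb, the beta-klotho partner that FGFR4 needs, had 11.4, 16.8 and 17.1 CPM in the labelled-knockout livers and 14.8, 19.8 and 22.7 CPM in the labelled-wild-type livers, with overlap (log2 fold change -0.34, edgeR adjusted p = 0.430). Gpbar1, the membrane bile acid receptor TGR5 of non-parenchymal cells, had 3, 0 and 8 counts in the labelled-knockout libraries and 0, 8 and 0 in the labelled-wild-type ones, and no fold is given at that depth.

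Ratios of counts within a library do not depend on how libraries are scaled, and 5 pairs were compared by exact permutation of the 6 libraries, two-sided, where the smallest possible p is 0.1. The log2 ratio of Slco1a4 to Slco1a1 was -2.35, -1.21 and 3.61 in the labelled-knockout libraries and -2.45, -4.08 and -3.02 in the labelled-wild-type libraries. The groups did not overlap, but replicates 1 of both groups were nearly level, and labelled-knockout replicate 3 stood alone above 0. The mean difference was 3.20 (exact permutation p = 0.1, adjusted over the 5 ratios p = 0.5), and 1.40 without that library. Abcc3 to Abcc2, the basolateral to the canalicular MRP carrier, averaged -0.50 ± 0.45 in the labelled-knockout libraries and -1.50 ± 0.88 in the labelled-wild-type libraries (SD, n = 3 each; exact permutation p = 0.2, adjusted p = 0.5). Cyp7b1 to Cyp7a1, alternative to classical route, averaged -1.12 ± 1.65 and 0.10 ± 0.69 in the labelled-knockout and labelled-wild-type libraries (exact permutation p = 0.3, adjusted p = 0.5). Cyp8b1 to Cyp7a1 averaged 0.13 ± 0.87 and -0.37 ± 0.61 in the labelled-knockout and labelled-wild-type libraries (exact permutation p = 0.4, adjusted p = 0.5). Abcb11 to Slc10a1 averaged -0.32 ± 0.90 and -0.43 ± 0.15 in the labelled-knockout and labelled-wild-type libraries (exact permutation p = 0.8, adjusted p = 0.8), a difference of 0.10 that became -0.35 without labelled-knockout replicate 3. None of the 5 could reach 0.05 in this design.

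**Figure D3:**
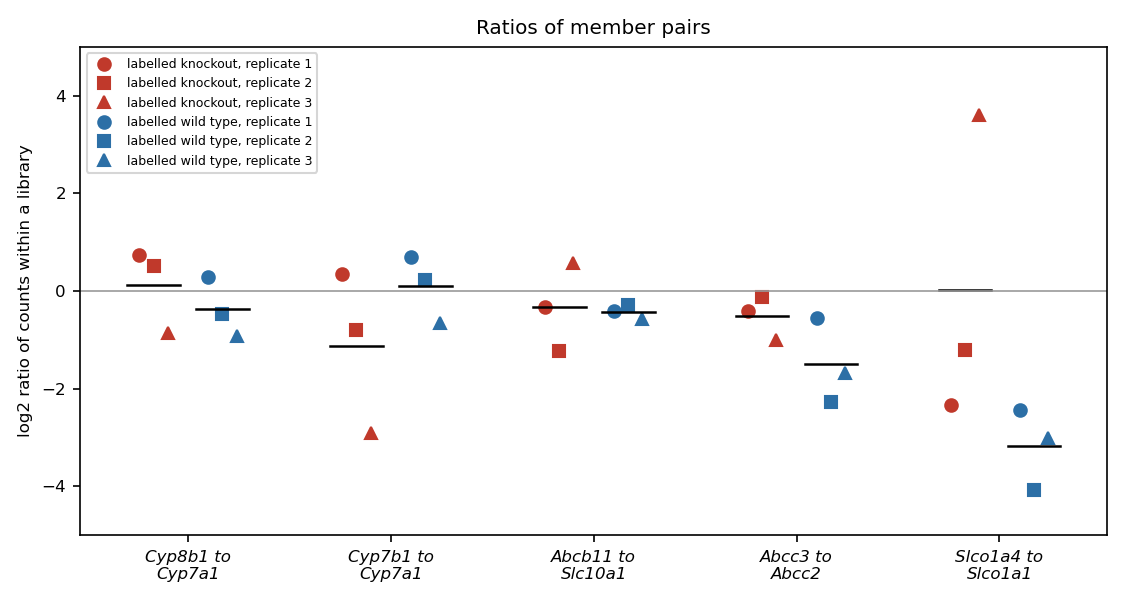
Log2 ratio of counts (plus 0.5) of 5 pairs of members within each library, labelled knockout (red) left of labelled wild type (blue), with group means as black lines and symbols for replicates 1 to 3. In the pair of Slco1a4 and Slco1a1, labelled-knockout replicate 3 stands at 3.61, above 0, and the other 5 libraries lie between -4.08 and -1.21.

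The spread between libraries was described for each group. On the log2 scale of CPM plus 0.5, the median SD over the 32 tested members was 0.44 in the labelled-knockout livers and 0.26 in the labelled-wild-type livers, and the labelled-knockout SD was the larger in 23 of 32 members (71.9%). Over all tested genes the medians were 0.23 in the labelled-knockout and 0.20 in the labelled-wild-type livers, and it was the larger in 55.3%. Labelled-knockout replicate 3 had the lowest value of its group for 18 of 32 members, and replicate 2 the highest for 21. The low values of replicate 3 included Slco1a1, Cyp7b1, Slc10a1, Slco1b2, Nr0b2 and Cyp27a1. In the same library Slco1a4, Abcc4, Slc51b and Cyp2c70 were the highest of the group, so the members did not all lie one way in it. Among the labelled-wild-type livers, replicate 1 was lowest for 16 of 32, Cyp7a1 and Slco1a1 among them, and highest for 10, with Abcc3, Abcc4 and Cyp39a1 among those. These ranks of libraries were counted for the members only, not over all tested genes. They therefore do not set the members apart from other genes.

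**Figure D4:**
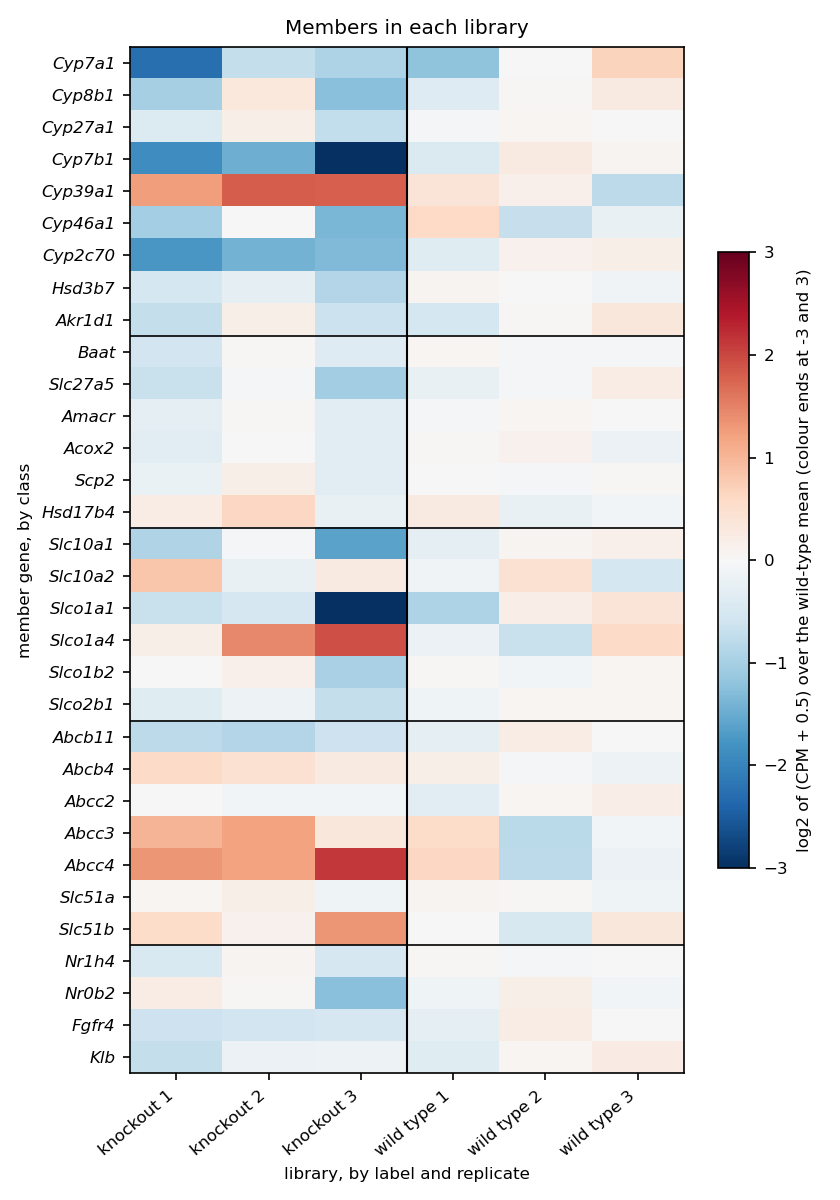
Each tested member in each library as the log2 of CPM plus 0.5 over the labelled-wild-type mean, grouped by class from ring enzymes at the top to signalling genes at the bottom, with the labelled-knockout libraries on the left. Cyp2c70, Cyp7b1 and Abcb11 are below the mean and Cyp39a1 and Abcc4 above it in all 3 labelled-knockout libraries, while Slco1a1, Slc10a1 and Nr0b2 are lowest in replicate 3.

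Among 40 other genes of bile acid regulation and handling, 38 were matched by symbol and 37 tested. By edgeR 2 were higher, 0 lower and 35 not called, against 1.44% of all genes. At an unadjusted p under 0.05 there were 4 higher and 10 lower (against 12% and 7.70% of all tested genes), and the median log2 fold change was -0.21 (0.09 with total-count scaling). Both called genes are known for handling drugs and other foreign compounds. Cyp3a11, a cytochrome P450 that hydroxylates bile acids and drugs, had 3139, 4091 and 5604 CPM in the labelled-knockout livers and 1237, 508 and 961 CPM in the labelled-wild-type livers (log2 fold change 2.25 ± 0.38, edgeR adjusted p = 0.0453). Abcb1a, a drug efflux pump of the canalicular membrane, had 14.7, 12.1 and 19.8 CPM in the labelled-knockout livers and 4.74, 2.42 and 3.41 CPM in the labelled-wild-type livers (log2 fold change 2.15 ± 0.29, edgeR adjusted p = 0.0390). Neither passed without labelled-knockout replicate 1 or 3 or without labelled-wild-type replicate 2 or 3 (adjusted p from 0.0537 to 0.180). Nor did they pass with the replicate number as a block (edgeR adjusted p = 0.0635 for Cyp3a11 and 0.05345 for Abcb1a). Cyp3a11 also did not pass with limma voom (adjusted p = 0.0547), and each gene lies in a family of similar genes.

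Markers of other liver cells included 4 genes called higher by edgeR in the livers labelled knockout. Over all tested genes edgeR called 1.44%, with 0.932% higher. Summed levels of 10 stellate cell and fibroblast markers were 910, 528 and 777 CPM in the labelled-knockout livers and 252, 258 and 279 CPM in the labelled-wild-type livers, with 2 of 10 called higher, Dcn (2.45-fold) and Lum (5.40-fold). For 10 Kupffer cell and macrophage markers the sums were 880, 840 and 924 CPM in the labelled-knockout livers and 748, 390 and 467 CPM in the labelled-wild-type livers, with 1 of 10 called higher, Cd68 (2.92-fold). The list was mixed in direction, with 7 positive and 3 negative log2 fold changes. The negative ones, named after their values were seen, belonged to Clec4f, Timd4 and Vsig4, markers of resident Kupffer cells, at -0.91, -1.33 and -0.42 (edgeR adjusted p = 0.496, 0.255 and 0.697). Cd5l, also a marker of resident Kupffer cells, was on the positive side at 0.16 (edgeR adjusted p = 0.863). Clec4f had 94.4, 101 and 16.9 CPM in the labelled-knockout livers and 177, 105 and 117 CPM in the labelled-wild-type livers, without overlap. Of the 10 tested bile duct markers 1 was called higher, Krt23 (15.9-fold), and its list had 9 positive and 1 negative log2 fold changes. Krt23 was not typical of that list in labelled-knockout replicate 2, where it had 9.76 CPM (0.281 to 0.886 CPM in the labelled-wild-type livers). In that library Krt7, Krt19 and Epcam, picked after their values were seen, lay within the labelled-wild-type range, Sox9 below it and Cldn4 above it. The edgeR adjusted p of the 4 called markers ran from 0.0380 to 0.0473. Lum did not pass with limma voom (0.0628) or with no filter (0.0547), and none of the 4 passed without labelled-knockout replicate 1 or labelled-wild-type replicate 2. With the replicate number as a block none of the 4 passed either (edgeR adjusted p from 0.05345 to 0.0795). At an unadjusted p under 0.05 there were 10 of 10 stellate, 6 of 10 Kupffer and macrophage and 5 of 10 bile duct markers, all higher, against 12% of all tested genes. DESeq2 called 9, 6 and 4 markers of these lists, against 10.6% of all genes. By edgeR, 0 of 8 endothelial, 0 of 8 leucocyte, 0 of 4 erythroid and 0 of 4 tested ileal markers were called (3, 3, 0 and 1 at an unadjusted p under 0.05, all higher). Summed over 8 leucocyte markers the levels were 33.8, 23.5 and 39.9 CPM in the labelled-knockout livers and 21.2, 12.8 and 16.1 CPM in the labelled-wild-type livers. By DESeq2, 1 endothelial, 2 leucocyte and 1 ileal marker were called. The part of these cells in the values of the bile acid genes was not tested.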

How the data were processed

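The authors deposited raw read counts per gene, 1 column per library and 3 libraries per group, as checked on the whole-number values; per the labels' protocols, poly(A) RNA was selected and the second strand, made with dUTP, was degraded. The submitters' processing notes name GRCm39 and edgeR without roles or versions. The aligner, counter, annotation and strand setting are not given in the sources used here. The counting may have divided or mixed reads of overlapping, antisense or near-identical genes. Column names matched the sample titles. Replicates differed by more than counting noise (lowest chi-square per gene 63.0).

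Genes were kept by filterByExpr (17606 of 30029), scaled by TMM and tested by quasi-likelihood (edgeR 4.0.16, limma 3.58.1, DESeq2 1.42.0, R 4.3.3), with Benjamini-Hochberg adjustment over all tested genes and a call at 0.05. Standard errors came from the F statistic. Intervals are at 95%, and 3 counts was the floor of detection (0.0423 to 0.0518 CPM of total counts, without TMM scaling). The floor covers counting error only, and the sources used here name no molecular identifiers. Gene lengths were the longest transcript in GENCODE vM21, matched by gene identifier, and upstream sequences came from RefSeq (GRCm38.p6).

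The members and lists were chosen with earlier results of these data known. All members are described; from each other list up to 4 called genes with the smallest p are named, or up to 2 where none is called. Genes in captions or named for 1 library were picked after their values were seen. Alternatives were DESeq2 size factors, total counts, no filter, 10 counts in 3 libraries, DESeq2, limma voom, the replicate number as a block, 5 counts added for ratios, and each library left out. The fits were also run on counts simulated from edgeR's own fit, which cannot tell which tool is right for the real counts.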

Additional observations from a re-analysis of the deposited data

How the results depend on the processing

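With all libraries and edgeR, 253 genes were called. Of these 64.8% were higher, against 93.3% with total-count scaling. Of the bile acid members, 1 was called, and 1 also with DESeq2 size factors, the filter of 10 counts and limma voom. Total counts gave 1008 genes and 3 members (Cyp39a1, Abcb4 and Cyp2c70), no filter 473 and 2 (Cyp39a1 and Cyp2c70), DESeq2 1867 and 8, and limma voom 69 genes; the cause was not tested. With 1 library left out, between 0 and 912 genes and between 0 and 4 members were called. Both counts were 0 by edgeR without labelled-wild-type replicate 2, where 2424 genes and 6 members had an unadjusted p under 0.05, while 4 members were called without labelled-wild-type replicate 1. Without labelled-knockout replicates 1, 2 and 3 there were 11, 912 and 33 genes, and without labelled-wild-type replicates 1 and 3, 382 and 4.

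Over all tested genes, same-numbered libraries of the groups did not deviate together (correlations of -0.00386, -0.0203 and -0.0457). The labels state no pairing, and these correlations do not test it for single genes. With the replicate block 4 genes and 0 members were called by edgeR (2926 genes and 12 members at an unadjusted p under 0.05), and Cyp2c70 was at an adjusted p of 0.0537. Cyp7a1 was at an edgeR adjusted p of 0.0868 with the block and 0.312 without it. In the ratios the block leaves the mean differences unchanged by arithmetic. Exact permutation of the signs of the paired differences gave p from 0.25 to 0.75, where 0.25 is the smallest possible.

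With 1 library left out the ratio differences ran from 0.195 to 0.997 for Cyp8b1 to Cyp7a1, -1.95 to -0.325 for Cyp7b1 to Cyp7a1, -0.349 to 0.555 for Abcb11 to Slc10a1, 0.614 to 1.48 for Abcc3 to Abcc2 and 1.40 to 4.38 for Slco1a4 to Slco1a1. The change of sign for Abcb11 to Slc10a1 came without labelled-knockout replicate 3. Counts were lowest for Slc51a, Slc51b and Gpbar1, where depth limits what can be seen.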
